A study of Mus musculus with 4 samples.

Results

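Intermediate filament genes were examined in the 4 clonal mammary tumor cell lines M1, M2, E1 and E2. The genes were taken by name, by a rule that used no measured value, though earlier results of these data were known. They were the keratins Krt7, Krt8, Krt18 and Krt19 of simple (luminal) epithelium, and the keratins Krt5, Krt14 and Krt17 of basal epithelium. Krt23, vimentin (Vim) and nestin (Nes) completed the list. All 10 had 1 probe set with a single gene symbol, out of 19938 genes with such a probe set. The array table holds 35556 probe sets, of which 23410 carry a gene symbol and were tested. M1 and M2, the 2 mesenchymal-like lines, came from tumor cells sorted as low for both CD24 and the neu protein. They grew in MEGM, a mammary epithelial medium, at 2% serum. It held hormones (hydrocortisone and insulin), EGF, an extract of bovine pituitary and the antimicrobials amphotericin and gentamycin. E1 and E2, the 2 epithelial lines, came from cells sorted as high for both proteins. Their medium was RPMI with 20% serum, HEPES, glutamine, non-essential amino acids, pyruvate, penicillin and streptomycin. All 4 lines derive from a spontaneous breast tumor of an FVB Tg MMTV/neu female, in which the mouse mammary tumor virus promoter drives rat neu in mammary cells. Each line is 1 clone, measured on 1 array, so that the p-values reflect the spread between clones, and cell type and growth medium cannot be told apart.

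Intermediate filaments are the rope-like part of the cytoskeleton that gives cells resistance to mechanical stress. Keratins assemble as obligate pairs of a type I chain (such as Krt14, Krt17, Krt18, Krt19 and Krt23) with a type II chain (such as Krt5, Krt7 and Krt8). In the mammary gland, Krt8, Krt18, Krt19 and Krt7 mark luminal cells, and Krt5, Krt14 and Krt17 mark basal and myoepithelial cells. Vimentin is the type III filament protein of mesenchymal cells and is widely used as a marker of the epithelial to mesenchymal transition (EMT). Nestin is a large filament protein that needs a partner such as vimentin to assemble, and is best known from neural progenitors.

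The sequences before the annotated starts of Krt8, Krt18, Krt7, Vim and Nes are shown because the keratins among them carried the same short motif while the test called only Krt7. A promoter entry was matched for 8 of the 10 genes, all but Krt19 and Krt17. The sequences are from RefSeq (GRCm38.p6), 250 bases up to the annotated start, 5′ to 3′ on the strand of the gene. Capitals mark matches, on either strand, to the E-box letters CAGGTG, of the kind that Snail and Zeb repressors bind, to the AP-1 letters TGANTCA, to the letters TATAAA of a TATA box and to the letters GGGCGG of a GC box. The motifs searched do not overlap one another in these stretches.

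Krt8 (chr15:102004343-102004592, minus strand): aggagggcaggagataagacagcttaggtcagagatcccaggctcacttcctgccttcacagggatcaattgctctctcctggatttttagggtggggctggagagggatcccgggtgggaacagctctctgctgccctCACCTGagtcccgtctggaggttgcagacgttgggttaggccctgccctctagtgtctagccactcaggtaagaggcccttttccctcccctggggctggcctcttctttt
Krt18 (chr15:102027966-102028215, plus strand): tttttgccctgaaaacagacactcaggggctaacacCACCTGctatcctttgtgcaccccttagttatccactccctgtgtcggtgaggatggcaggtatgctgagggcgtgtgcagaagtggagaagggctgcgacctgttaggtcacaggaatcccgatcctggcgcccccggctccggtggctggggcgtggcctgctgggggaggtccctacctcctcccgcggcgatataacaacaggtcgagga
Krt7 (chr15:101412153-101412402, plus strand): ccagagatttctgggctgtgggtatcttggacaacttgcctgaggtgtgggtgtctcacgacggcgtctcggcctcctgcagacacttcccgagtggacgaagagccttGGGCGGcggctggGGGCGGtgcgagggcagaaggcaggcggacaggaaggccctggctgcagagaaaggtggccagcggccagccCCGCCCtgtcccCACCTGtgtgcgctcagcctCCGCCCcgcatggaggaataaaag
Vim (chr2:13574061-13574310, plus strand): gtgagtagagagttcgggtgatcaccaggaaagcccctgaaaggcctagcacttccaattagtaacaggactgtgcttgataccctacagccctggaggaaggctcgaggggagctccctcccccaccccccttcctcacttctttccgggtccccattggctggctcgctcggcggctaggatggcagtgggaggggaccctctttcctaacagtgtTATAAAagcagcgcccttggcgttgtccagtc
Nes (chr3:87970843-87971092, plus strand): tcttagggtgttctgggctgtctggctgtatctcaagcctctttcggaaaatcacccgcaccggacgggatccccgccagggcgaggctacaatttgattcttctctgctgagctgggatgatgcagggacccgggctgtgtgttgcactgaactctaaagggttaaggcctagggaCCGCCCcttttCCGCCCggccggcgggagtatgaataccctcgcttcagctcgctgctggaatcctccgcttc

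The promoter windows searched reach 250 bases before and 50 after the start. The E-box letters were found in 5 of 8 windows, all of keratins (Krt5, Krt7, Krt8, Krt18 and Krt23), of which 6 had a window. They occur in 20.2% of all 32851 promoter windows of the same length. The match begins 44 bases before the start in Krt7, 111 bases before it in Krt8 and 214 bases before it in Krt18, always as CACCTG on the strand of the gene. GC boxes were found in 2 of 8 windows, 4 times in Krt7 and 2 times in Nes, while 35.7% of all windows hold at least 1. TATA box letters were found in 2 of 8 windows, against 13.6% of all. In Vim they begin 32 bases before the start. In Krt8, the letters TATAAA and their reverse complement begin 1 and 3 bases before the annotated start and run past it, so that the stretch shown cuts them and they are not in capitals. AP-1 letters were found in 0 of 8 windows (7.81% of all windows). These are letter matches only, and binding was not measured.

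Of the 10 genes, Krt7 fell in the mesenchymal-like lines and no other gene passed the test. The pair Krt8 and Krt18 stayed at high levels in all 4 lines, Krt19 and the basal keratins were low in all 4, vimentin was high in all 4, and the nestin level was higher in the epithelial lines without passing. By limma, with p-values adjusted over all probe sets, 1 of the 10 genes was lower in M1 and M2, against 2.02% of all probe sets tested, and 0 were higher, against 1.72% of all. At an unadjusted limma p under 0.05, 3 of the 10 differed (Krt7, Nes and Vim), against 18.0% of all probe sets. The median log2 difference, mesenchymal-like minus epithelial, was -0.26 over the 10 genes and 0.00 over all probe sets. Both mesenchymal-like lines lay below both epithelial lines in 4 genes (Krt7, Krt5, Krt17 and Nes), against 23.8% of all probe sets, and above them in 2 (Krt19 and Vim), against 24.2%. For a single gene, the exact permutation test of 2 lines against 2 allows no two-sided p below 0.333.

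**Figure D1:**
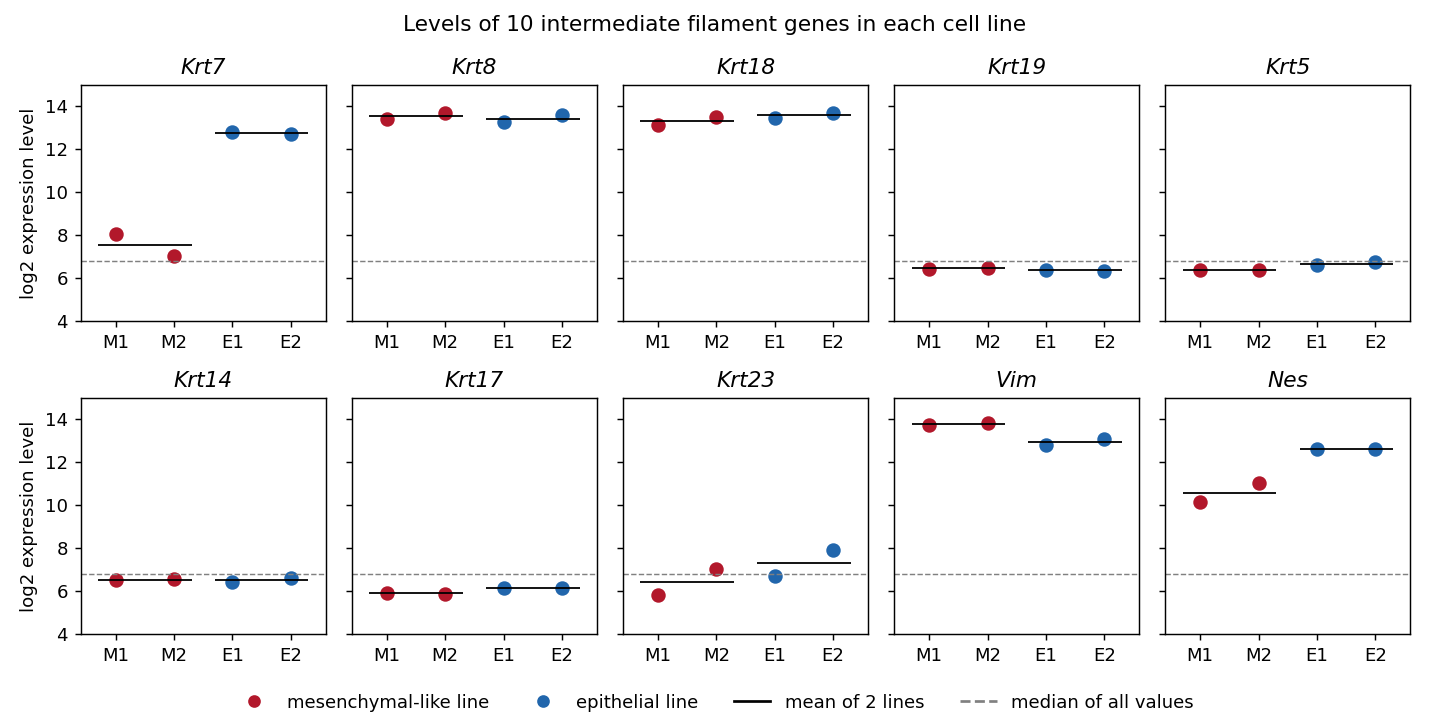
Log2 expression level (vertical axis) of each gene in M1, M2, E1 and E2, 1 array per line, with the mean of the lines of each type as a bar and the median of all values on the arrays, 6.78, as a dashed line. Krt7 and Nes are lower in both mesenchymal-like lines, Krt8, Krt18 and Vim are far above the dashed line in all lines, and Krt19, Krt5, Krt14 and Krt17 are below it in all lines.

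Krt7, a type II keratin of simple and ductal epithelia, had log2 levels of 8.05 in M1 and 7.04 in M2, against 12.82 in E1 and 12.72 in E2. The groups lay far apart, and M2 was close to the median of all values. Krt7 averaged 7.54 ± 0.72 in the mesenchymal-like lines and 12.77 ± 0.07 in the epithelial lines (SD, n = 2 each). Its log2 difference of -5.23 (95% interval -6.28 to -4.18) is a 37.5-fold lower level, and it passed the test (limma adjusted p = 0.0123). It ranked as number 35 among the 23410 probe sets in order from the largest fall. The call was lost without E1 (adjusted p = 0.137) and without E2 (0.141), where limma called 0 of all probe sets, with 2579 and 2651 at an unadjusted p under 0.05. It was also lost with a floor at the median of all values (0.142), although the 4 levels of Krt7 itself lie above that floor.

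Krt8 and Krt18, the type II and type I chains of the first keratin pair made in the embryo and the main pair of simple epithelia, were near the top of the array scale in every line, where the highest value of any probe set was 14.54. Krt8 had log2 levels of 13.44 in M1 and 13.69 in M2, against 13.27 in E1 and 13.60 in E2. The groups overlapped, and within each type the second clone was the higher. The difference of 0.13 had an interval of -0.37 to 0.64 (limma adjusted p = 0.807), and its sign turned without E1 (-0.031). A Krt8 pseudogene is annotated in the mouse, and its part in the signal was not tested. Krt18 had log2 levels of 13.12 in M1 and 13.48 in M2, against 13.47 in E1 and 13.69 in E2. Its groups overlapped too, with a difference of -0.28 and an interval of -0.79 to 0.23 (limma adjusted p = 0.557). The intervals of both genes hold changes of less than 2-fold in either direction and do not reach that of Krt7. Differences between levels this near the top of the scale can be compressed, which was not tested. In the RefSeq gene order Krt8 and Krt18 are direct neighbors, while Krt7 lies between Krt80 and Krt87.

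Neither neighbor of Krt7 was called. Krt80, a type II keratin, had log2 levels of 9.95 in M1 and 8.78 in M2, against 9.14 in E1 and 8.75 in E2, with M1 alone at the high end. Krt87, a hair keratin, had 7.40 in M1 and 7.48 in M2, against 7.45 in E1 and 7.86 in E2. The limma adjusted p was 0.746 for Krt80 and 0.669 for Krt87. Their log2 differences were 0.42 for Krt80 and -0.21 for Krt87.

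Krt19, the small type I keratin of luminal cells, was low and even. Its log2 level was 6.41 in M1 and 6.48 in M2, against 6.40 in E1 and 6.33 in E2, all below the median of all values. Both mesenchymal-like lines lay above both epithelial lines, but by only 0.08 (interval -0.21 to 0.38, limma adjusted p = 0.795). No background threshold came with the arrays, and values this low do not establish that expression was equal.

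The basal keratins were low in all 4 lines, with log2 levels between 5.85 and 6.73. Krt5, the type II chain of the basal pair, had log2 levels of 6.39 in M1 and 6.39 in M2, against 6.62 in E1 and 6.73 in E2. Krt14, its type I partner, had 6.52 in M1 and 6.55 in M2, against 6.42 in E1 and 6.62 in E2. Krt17, a type I keratin induced in wounds and stressed epithelium, had 5.93 in M1 and 5.85 in M2, against 6.15 in E1 and 6.12 in E2. Krt5 and Krt17 were lower in both mesenchymal-like lines without overlap, with log2 differences of -0.28 and -0.24, and Krt14 overlapped. All these levels lay below the median of all values. With low values raised to that median, the differences in Krt5 and Krt17 were 0, so that the separation rests on low values. None of the 3 passed (limma adjusted p = 0.304 for Krt5, 0.974 for Krt14 and 0.364 for Krt17), and the sign of the difference in Krt14 (0.02) turned after quantile normalization (-0.019), after centring the arrays (-0.025) and without E1 (-0.081). Krt14, Krt16 and Krt17 are close relatives in sequence, and cross-hybridization between their probe sets was not tested. The 11 other basal and myoepithelial markers did not move together. Igfbp5, a binding protein of insulin-like growth factors, fell to 6.02 in M1 and 6.33 in M2, against 11.91 in E1 and 12.35 in E2 (limma adjusted p = 0.00305). Procr, the endothelial protein C receptor and a marker of basal mammary stem cells, rose to 9.95 in M1 and 10.01 in M2, against 6.42 in E1 and 6.80 in E2 (limma adjusted p = 0.00550). The other 9 were not called. Among them, Cav1 (caveolin) was at 12.40 in M1 and 11.95 in M2, against 11.16 in E1 and 8.22 in E2. Its log2 difference was 2.49, with E2 7.68-fold below E1. Of the 9, 2 more were chosen after their values were seen. Trp63, the transcription factor of basal epithelium, had a difference of 0.10, and Acta2, smooth muscle actin, had 0.03.

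Krt23, a type I keratin with a less settled role, differed between the clones of each type. It had log2 levels of 5.80 in M1 and 7.02 in M2, against 6.72 in E1 and 7.92 in E2. M1 was the lowest line and E2 the highest, and the groups overlapped. The difference between types was -0.91 (interval -2.63 to 0.82, limma adjusted p = 0.576). M1 was 2.34-fold below M2, and E2 was 2.31-fold above E1. Its levels in M1 and E1 lay below the median of all values. With low values raised to that median, the log2 difference M1 minus M2 moved from -1.22 to -0.25. That of E2 minus E1 went from 1.21 to 1.14.

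Vimentin was high in all 4 lines. Its log2 level was 13.72 in M1 and 13.82 in M2, against 12.79 in E1 and 13.10 in E2. Both mesenchymal-like lines lay above both epithelial lines, and the mean was 13.77 ± 0.06 in the mesenchymal-like lines and 12.94 ± 0.22 in the epithelial lines (SD, n = 2 each). The difference of 0.83 (interval 0.40 to 1.25), a 1.78-fold higher level, did not pass over all probe sets (limma adjusted p = 0.0896, unadjusted p = 0.00580), and it passed when the prior variance was allowed to follow intensity (0.0434). The gene ranked as number 1526 of 23410 from the largest rise. Its levels in M1 and M2 lay above every level of Krt8 and Krt18, but levels of different probe sets do not compare amounts of transcript. Differences this near the top of the scale can be compressed, which was not tested for vimentin either. By qPCR, the paper reports more vimentin transcript in the mesenchymal-like lines than in the epithelial lines. On the same arrays the EMT transcription factor Zeb1 was at 10.99 in M1 and 10.64 in M2, against 7.49 in E1 and 6.96 in E2, a 12.0-fold higher level (limma adjusted p = 0.0113).

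Nestin had log2 levels of 10.14 in M1 and 11.02 in M2, against 12.64 in E1 and 12.63 in E2. The epithelial lines were nearly equal and above both mesenchymal-like lines, and M1 was the lowest line. The difference was -2.06 (interval -2.97 to -1.14), a 4.16-fold lower level in the mesenchymal-like lines, and did not pass (limma adjusted p = 0.0687, unadjusted p = 0.00348). It passed without M1 (adjusted p = 0.0145) and without M2 (0.00539), where a lone mesenchymal-like line is assumed to vary like the epithelial lines. Of 5 neural progenitor markers measured, limma called 1 lower and 0 higher, against 2.02% and 1.72% of all probe sets. It was Sox10, a neural crest transcription factor also made by some mammary epithelial cells (limma adjusted p = 0.00252). Sox10 was at 7.18 in M1 and 7.30 in M2, against 12.19 in E1 and 12.38 in E2. The summed linear level of the 5 markers was 432 in M1 and 457 in M2, against 4974 in E1 and 5712 in E2. Sox10 carried that difference: the sum of the other 4 was 287 in M1 and 300 in M2, against 296 in E1 and 401 in E2. The part of such cells in the level of nestin was not tested.

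**Figure D2:**
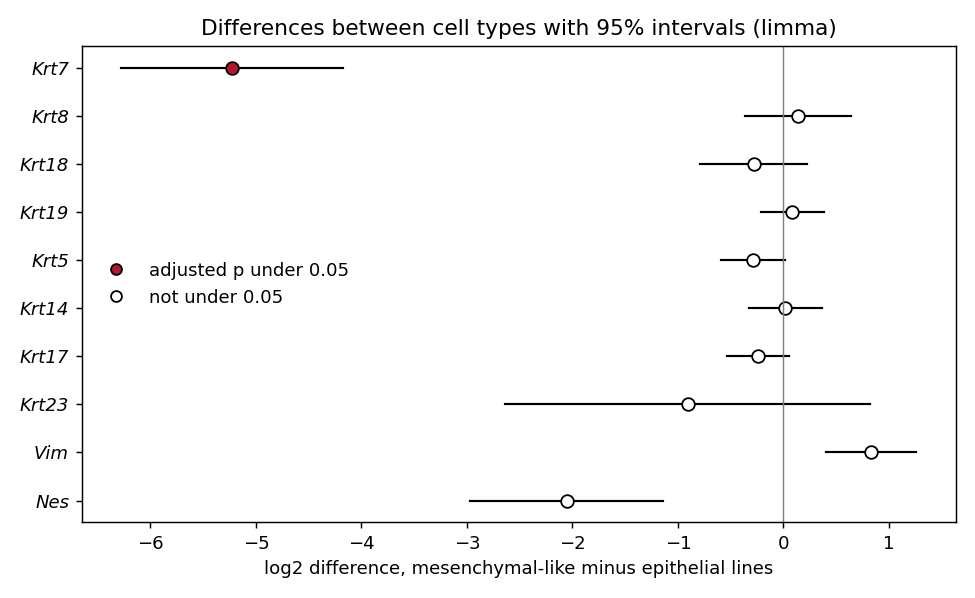
Log2 difference of each gene, mean of M1 and M2 minus mean of E1 and E2, with its 95% interval from limma. Krt7 (-5.23) alone passed an adjusted p under 0.05, and the intervals of Nes (-2.97 to -1.14) and Vim (0.40 to 1.25) lie on opposite sides of 0.

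Between clones of the same type, most of these genes were even. In M1 and M2, 2 of the 10 genes were at least 2-fold apart, Krt7 (2.02-fold higher in M1) and Krt23, against 5.86% of all probe sets. In E2 and E1, only Krt23 was, against 2.24% of all. These pairs set 1 array against another and carry no test. With low values raised to the median, Krt23 was less than 2-fold apart in M1 and M2 (log2 difference -0.25). Nes followed, 1.84-fold lower in M1 than in M2 and 1.00-fold apart in the epithelial lines. The other 7 genes were at most 1.29-fold apart in either pair.

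**Figure D3:**
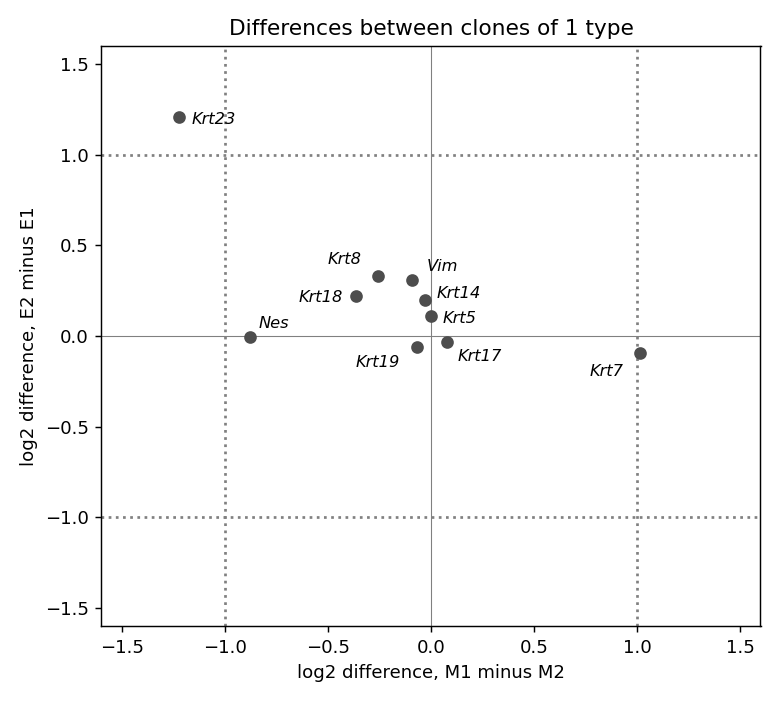
Log2 difference between M1 and M2 (horizontal axis) and between E2 and E1 (vertical axis) for each gene, with dotted lines at 2-fold. Krt23 lies past 2-fold in both pairs (-1.22 and 1.21), Krt7 just past it between M1 and M2 (1.01), and the rest within the lines.

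Levels of the remaining keratins were mostly low. Of 47 further keratin genes listed, 44 had a single-symbol probe set, and limma called 0 of them, with 1 at an unadjusted p under 0.05. Of all probe sets, 3.73% were called in either direction and 18.0% had such an unadjusted p. Their median difference was -0.00 on the log2 scale, and 43 of 44 differed by less than 0.5, against 18470 of the 23410 probe sets tested. In 26 of the 44, all 4 lines lay below the median of all values, and in 9 all 4 lay above it, against 36.9% and 52.8% of all probe sets. The one beyond 0.5 was Krt76, a keratin of oral epithelium, at 6.49 in M1 and 6.44 in M2, against 5.89 in E1 and 6.02 in E2 (difference 0.51, limma adjusted p = 0.123). Among the type I genes the largest difference was in Krt10, a keratin of differentiating epidermis, at 7.22 in M1 and 7.04 in M2, against 7.45 in E1 and 7.44 in E2 (-0.32, limma adjusted p = 0.307).

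Of 16 other intermediate filament genes, 0 passed the limma threshold and 2 had an unadjusted p under 0.05, against 3.73% and 18.0% of all probe sets, which is near the share of all. Synm, whose product synemin copolymerizes with vimentin and desmin, had log2 levels of 6.79 in M1 and 6.79 in M2, against 7.66 in E1 and 7.41 in E2. Its difference of -0.75 did not pass (limma adjusted p = 0.0867). Desmin (Des), the filament protein of muscle, was at 7.88 in M1 and 6.84 in M2, against 6.04 in E1 and 6.28 in E2 (limma adjusted p = 0.241). Syncoilin (Sync) was at 10.30 in M1 and 9.67 in M2, against 6.33 in E1 and 9.87 in E2, so that E1 alone stood apart and the epithelial lines differed 11.7-fold.

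Several genes of proteins that fasten filaments to the cell surface were called. Of 19 linker and anchor genes, 4 were lower and 2 higher in the mesenchymal-like lines by limma, against 2.02% and 1.72% of all probe sets, with a median difference of -0.11. Desmoplakin (Dsp), which ties keratins to desmosomes, was at 6.19 in M1 and 6.27 in M2, against 11.34 in E1 and 11.39 in E2. That is a 35.2-fold lower level (limma adjusted p = 0.00252). The desmosomal plaque genes Jup (plakoglobin) and Pkp3 (plakophilin) were 3.76-fold and 3.88-fold lower (limma adjusted p = 0.0157 and 0.0142), and Pkp2 was 1.90-fold lower (0.0447). In the other direction, periplakin (Ppl) was at 10.79 in M1 and 10.84 in M2, against 8.33 in E1 and 8.74 in E2, a 4.86-fold higher level (limma adjusted p = 0.0153). Plectin (Plec), a linker of vimentin and keratins to actin and hemidesmosomes, was at 10.55 in M1 and 10.37 in M2, against 9.06 in E1 and 9.15 in E2, a 2.56-fold higher level (0.0211). Pkp2 and Plec were added to the rule-named genes of the list after their values were seen, and all these calls were lost without E1 or without E2.

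**Figure D4:**
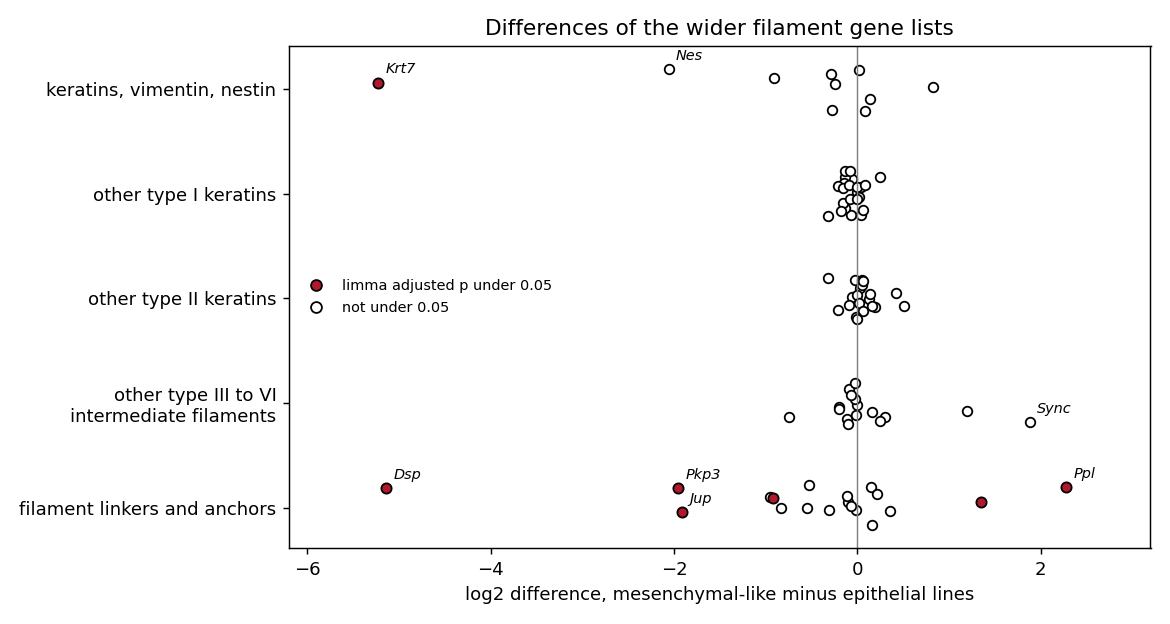
Log2 difference, mesenchymal-like minus epithelial, of each gene (1 point per gene, spread vertically for legibility) for the 10 genes above and for 4 lists of related genes. The 44 other keratins lie between -0.32 and 0.51, while the linkers reach from -5.14 (Dsp) to 2.28 (Ppl).

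Genes whose profile over the 4 lines was most like that of Vim, by the root mean square distance of log2 levels centred on each gene's mean, were Izumo4 (0.04), Tacc3 (0.04) and Tmem184b (0.04), with 65 probe sets closer than 0.1. For Krt8 they were Htr3b, Mir25 and Hmcn1 (0.01 to 0.02) and for Krt14 Crocc, Olfr1286 and Otud7a (0.00 for each). As many as 1307 and 5490 probe sets lay closer than 0.1 to the flat profiles of Krt8 and Krt14, so that these names single out nothing. A distance over 4 lines is a description only.

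The labels of the lines were checked against marker genes, from lists chosen with earlier results of these data known. This is not an independent check. Of 14 luminal markers outside the keratins, limma called 7 lower and 0 higher in M1 and M2, against 2.02% and 1.72% of all probe sets. Among the 7 was Cdh1, E-cadherin, at 49.4-fold lower. Of 12 mesenchymal markers limma called 7 higher and 0 lower. RNA of Cd24a, the gene of the sorted protein CD24, lay opposite to the direction of the sort. It was at 12.39 in M1 and 12.53 in M2, against 11.61 in E1 and 12.15 in E2, and was not called (limma adjusted p = 0.309). The sort was by CD24 protein on tumor cells before culture and cloning, so measure and time are unlike. Esr1, the estrogen receptor, was also above the epithelial lines in both mesenchymal-like lines, with a log2 difference of 1.43 (0.205). For basal and myoepithelial markers it called 1 of 11 higher (Procr) and 1 lower (Igfbp5). Limma called 0 of 8 fibroblast, 0 of 6 endothelial, 0 of 5 leukocyte and 0 of 4 adipocyte markers, against 3.73% of all probe sets in either direction. By unadjusted limma p, again at 0.05, the counts were 1, 1, 0 and 1, against 18.0% of all. In lists this short, 0 calls is near the share of all. All 4 lines lay under the overall median in 3 of 5 leukocyte markers (Ptprc among them) and 4 of 6 endothelial markers (Pecam1 among them). The same held for 3 of 4 adipocyte markers (Adipoq among them) but only 1 of 8 fibroblast markers, against 36.9% of all probe sets. Other members did not: endothelial Vwf lay above that median in all 4 lines. Cdh5, also endothelial, was at 7.58 in M1 and 6.72 in M2, against 5.99 in E1 and 6.15 in E2. In 4 of the 8 fibroblast markers all 4 lines lay above the overall median, against 52.8% of all probe sets. Summed linear levels of the fibroblast list were 2864 in M1 and 1947 in M2, against 926 in E1 and 1057 in E2, with Dcn at 10.08 in M1 alone. Dcn did not carry all of that: without it the sums were 1781 in M1 and 1893 in M2, against 881 in E1 and 1007 in E2. Pdgfrb was at 9.51 in M1 and 5.92 in M2, against 5.86 in E1 and 6.03 in E2. Pdgfra was at 8.71 in M1 and 10.20 in M2, against 7.78 in E1 and 7.83 in E2. Between types, 5 of the 8 fibroblast markers differed by less than 0.5 on the log2 scale. Summed levels of the adipocyte list were 318 in M1 and 1920 in M2, against 218 in E1 and 231 in E2, with Fabp4 highest in M2. Leukocyte sums were 1831 in M1 and 3404 in M2, against 1895 in E1 and 724 in E2, with Cd68 carrying the spread (without it, 285 in M1 and 293 in M2, against 280.3 in E1 and 287 in E2). Endothelial sums were 483 in M1 and 400.2 in M2, against 339 in E1 and 376 in E2. The part of these cell types in the levels of Vim or Krt7 was not tested. The median of each array was between 6.75 and 6.85.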

How the data were processed

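RNA of M1, M2, E1 and E2 was hybridized to Affymetrix Mouse MoGene-1_0-st-v1 arrays, 1 per line. The authors deposited normalized log2 values; the labels name Partek without a version, and background correction, normalization and summarization are not given in the sources used here. RNA preparation is given as Trizol in the labels and as a column kit in the paper. Of 35556 probe sets, the platform annotation gives 1 symbol for 21789, several for 1621 and none for 12146. The 23410 with a symbol were fitted with limma 3.58.1 (R 4.3.3), mesenchymal-like minus epithelial, with 2 residual degrees of freedom and Benjamini-Hochberg adjustment over all of them, at a threshold of 0.05. The function was tested on simulated data. Lists used single-symbol probe sets, the brightest per gene. Fold changes are 2 to the power of the log2 difference. All 10 genes of the report, and up to 4 of each list with the largest difference, called genes first, were named; others are marked or serve as neighbors or label checks. Members and lists were chosen with earlier results of these data known. Clone numbers 1 and 2 name clones; no source pairs them. Protein sequences were not analysed here. Python 3.11.15 was used for tables and figures.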

Additional observations from a re-analysis of the deposited data

How the results depend on the processing

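The alternatives were quantile normalization, median centring, leaving out dim probe sets, raising low values to a floor, all probe sets or only those with 1 symbol, an intensity trend, the clone number as a replicate block, a threshold of 0.1 and leaving out each line. Krt19, Krt5, Krt14 and Krt17 drop out under the dim filter, and no gene has a further probe set to try. The 874 probe sets called became 223 with the raised floor, 319 with the replicate block, 1660 at 0.1 and 0 to 1879 without 1 line. Of the 10 genes, limma called 1 (Krt7), 0 with the raised floor, 2 with the trend (Krt7 and Vim), 3 at 0.1 (with Nes and Vim) and 0 to 2 without 1 line. The replicate block left 1 residual degree of freedom and kept Krt7 (limma adjusted p = 0.0485). The differences between M1 and M2 and between E1 and E2 correlated at -0.04 across probe sets. A correlation over all probe sets cannot show whether the numbers pair the clones, and no source pairs them. Krt14 (main difference 0.02) changed sign with quantile normalization (-0.019), with centring (-0.025) and without 1 line (-0.081 to 0.12), and Krt8 (0.13) without 1 line (-0.031 to 0.30), in both genes when E1 was left out. Over the alternatives the difference ranged between -5.73 and -4.72 for Krt7, -2.50 and -1.62 for Nes and 0.67 and 0.98 for Vim. The causes of the changed calls were not tested. With 2 clones a type, the number of arrays limits the precision.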
